A study of Mus musculus with 4 samples.

Results

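The genes described here encode secreted antimicrobial and acute-phase proteins, and were followed in tumor-associated macrophages (TAMs) of mouse melanomas. The list names 10 genes by symbol (Rnase6, Rnase4, Lyz1, Lyz2, Slpi, Wfdc17, Hp, Lcn2, Ngp and Camp), and all 10 were found by Entrez identifier among the 16739 genes with a value in any library. The list sets no threshold, but its members were selected on their expected counts and FPKM in these same libraries, so the differences given for its members describe these libraries and are not independent evidence. RNA was sequenced from CD45+CD11b+F4/80+ cells sorted 16 days after B16-F10 melanoma cells had been injected under the skin of C57BL/6 mice aged 6 to 8 weeks. The WT group and the group labelled Trim24-deficient (written deficient-labelled for single libraries) held 2 libraries each. In the second group floxed Trim24 had been crossed with LysM-Cre, a recombinase driven from the Lyz2 locus in myeloid cells, so these mice carried Cre in the Lyz2 locus, which is on the list. The labels do not say whether each library came from a single mouse or from a pool, so the spread between libraries may be partly technical.

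Macrophages and granulocytes secrete small proteins that damage microbes or withhold nutrients from them. Lysozymes cleave the bacterial cell wall, ribonucleases of the RNase A family include members that kill bacteria, and proteins with a WAP four-disulfide core, such as Slpi, inhibit serine proteases of granulocytes. Haptoglobin (Hp) binds free haemoglobin and lipocalin 2 (Lcn2) binds iron-loaded bacterial siderophores, and both rise in the acute-phase response. Ngp and Camp, the latter the mouse cathelicidin, are stored in neutrophil granules and are made mainly while neutrophils mature in the bone marrow.

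The expected counts of the 4 libraries summed to between 4476122 and 5172407, so that 3 counts, taken as the detection floor (counting error alone), were worth 0.606 to 0.639 CPM (counts scaled to a library total of 1000000). Trim24 itself had 28.8 and 10.2 expected counts in WT replicates 1 and 2, and 16.1 and 2 in deficient-labelled replicates 1 and 2. These values overlapped between groups. They are per gene, so deletion of the floxed part of Trim24 cannot be seen in them, and they neither show nor contradict the genotype labels. The word "labelled" is kept for this reason. Ddx3y, on the Y chromosome, had 73.7 and 102 CPM in WT against 0.426 and 0.411 CPM in the other group, while the X-linked Xist ran the other way, so genotype and sex cannot be told apart in any difference given here. In bulk RNA of sorted cells, fewer cells of a type and less RNA per cell cannot be told apart either.

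Sequences are shown first for the lysozyme pair, because the similarity of Lyz1 and Lyz2 bears on how their reads were divided. Lyz1 (Entrez gene 17110) lies at chr10:117287797-117292868 and Lyz2 (Entrez gene 17105) at chr10:117277331-117282321 of GRCm38, both protein-coding, on the minus strand and with 4 exons, with 5475 bases between them. Their coding sequences are 444 bases each, and 422 of these bases are identical in GENCODE M21, with a longest identical run of 118 bases. The first 120 coding bases follow, 5′ to 3′, with capitals at the 11 bases where the genes differ.
Lyz1: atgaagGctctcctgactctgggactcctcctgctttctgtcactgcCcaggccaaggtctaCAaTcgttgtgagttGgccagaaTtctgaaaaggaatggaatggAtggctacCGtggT
Lyz2: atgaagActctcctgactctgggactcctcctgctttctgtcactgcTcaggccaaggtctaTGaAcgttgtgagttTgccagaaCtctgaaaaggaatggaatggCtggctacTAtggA
Of all stretches of 50 bases in the Lyz1 transcript, 16.1% also occur in Lyz2, and 15.4% of those in Lyz2 occur in Lyz1. A read inside such a stretch fits both genes, and RSEM divides it by probability, so the Lyz1 value is uncertain. These shares do not bound its error, because Lyz2 had far more reads to divide (25814 expected counts against 654 for Lyz1 in WT replicate 1). The likeness extends upstream of the RefSeq transcript starts, where 92 of the last 100 bases agree (GRCm38.p6, chr10:117292869-117292968 for Lyz1 and chr10:117282273-117282372 for Lyz2, minus strand, differences in capitals). Part of the Lyz2 window lies inside the span given above for Lyz2, which is that of GENCODE M21.
Lyz1: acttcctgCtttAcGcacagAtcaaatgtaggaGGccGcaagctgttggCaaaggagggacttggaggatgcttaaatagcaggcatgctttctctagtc
Lyz2: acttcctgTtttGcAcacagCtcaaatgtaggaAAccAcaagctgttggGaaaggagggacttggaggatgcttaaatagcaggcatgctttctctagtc

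Lyz2, lysozyme M of macrophages, had the highest level per transcript length of the 10 genes in every library. It was at 5139 and 3606 FPKM (fragments scaled to transcript length and library total) in WT replicates 1 and 2, and at 6531 and 4823 FPKM in deficient-labelled replicates 1 and 2, which placed it between rank 7 and rank 10 of all listed genes. Between 74.8% and 88.2% of the reads of the whole list were Lyz2 reads. Lyz1, lysozyme P, the form known from Paneth cells of the gut, was at 107 and 195 FPKM in WT and at 129 and 265 FPKM in the deficient-labelled libraries. In both groups replicate 2 was the higher Lyz1 library and the lower Lyz2 library.
The share of Lyz1 in the reads of both lysozymes followed the replicate number and not the genotype label. It was 2.47% in WT replicate 1 (95% Wilson interval 2.29% to 2.66%, 654 of 26468 counts) and 2.35% in deficient-labelled replicate 1 (2.20% to 2.52%). In replicate 2 it was 6.18% in WT (5.84% to 6.54%) and 6.28% in the deficient-labelled library (6.00% to 6.57%). The intervals overlapped between the genotype labels and were far apart between the replicate numbers. They cover counting error only, not the division of shared reads, and the labels do not say what a replicate number marks.

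**Figure D1:**
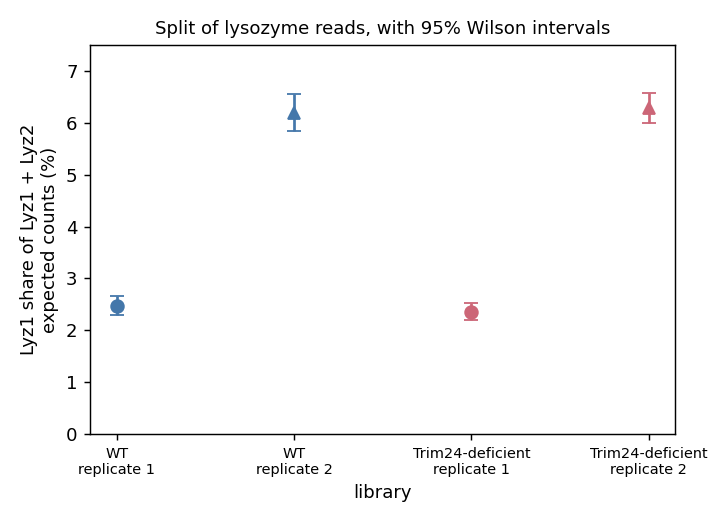
Share of Lyz1 in the expected counts of Lyz1 and Lyz2 (y axis, percent) in each library (x axis), with bars for 95% Wilson intervals. Both replicate 1 libraries sat between 2.35% and 2.47%, and both replicate 2 libraries between 6.18% and 6.28%.

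Neither lysozyme passed the test between genotype labels. The log2 fold change of Lyz2 was 0.52 (standard error, SE, 0.28, adjusted p = 0.481), with both deficient-labelled libraries above both WT libraries. That of Lyz1 was 0.55 (SE 0.36, adjusted p = 0.566), with overlapping groups, and without deficient-labelled replicate 2 it turned to -0.076 (adjusted p = 0.929). Without deficient-labelled replicate 1 it was 0.99 and passed (adjusted p = 0.0162), within a range over the 4 such fits of 0.0162 to 0.973. When the reads of both genes were summed, the log2 fold change was 0.52.

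Both ribonucleases of the list lie on chromosome 14 (GRCm38, plus strand), with 17756 bases between them, and their values stood on opposite sides of WT in the deficient-labelled libraries. Rnase6 (Entrez gene 78416, chr14:51123908-51132187, 3 exons in its longest basic transcript) encodes ribonuclease k6, an antibacterial enzyme of myeloid cells. It had 32 and 36 expected counts in WT replicates 1 and 2, and 176 and 140 in deficient-labelled replicates 1 and 2. In CPM these were 6.46 and 7.5 against 37.5 and 28.8, so that the groups were well apart and each pair of libraries lay within 1.30-fold. Rnase6 rose 4.73-fold (log2 2.24, SE 0.28), with an adjusted p of 0.0112 by the edgeR test run over all tested genes. The call held in each of 9 other settings and without each library in turn, with log2 fold changes between 1.94 and 2.42.
Rnase4 (Entrez gene 58809, chr14:51091077-51106151, 2 exons) encodes a ribonuclease that prefers uridine in RNA and is found in many tissues. It was far more abundant than Rnase6 in WT libraries, at 231 and 281 FPKM against 6.28 and 7.61 FPKM. In the deficient-labelled libraries Rnase4 was at 117 and 206 FPKM and Rnase6 at 33.8 and 25.6 FPKM. The ratio of Rnase4 to Rnase6 in FPKM was thus 36.8 and 36.9 in the WT libraries, and 3.46 and 8.07 in deficient-labelled replicates 1 and 2. For Rnase4 alone the log2 fold change was -0.51 (SE 0.28, adjusted p = 0.494), with both deficient-labelled libraries below both WT libraries, though replicate 2 at 347 CPM was close to WT replicate 1 at 353 CPM. Without that replicate 2 the log2 fold change was -0.996 and passed (adjusted p = 0.00897, with a range of 0.00897 to 0.999 over the fits that left out each library). Rnase4 overlaps Ang, the angiogenin gene, over 10860 bases on the same strand, and 3.81% of its 50-base stretches also occur in Ang transcripts. Ang was at 21.2 and 35.2 CPM in WT and at 19.0 and 27.3 CPM in the deficient-labelled libraries, a log2 fold change of -0.28 (SE 0.30, adjusted p = 0.745).

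**Figure D2:**
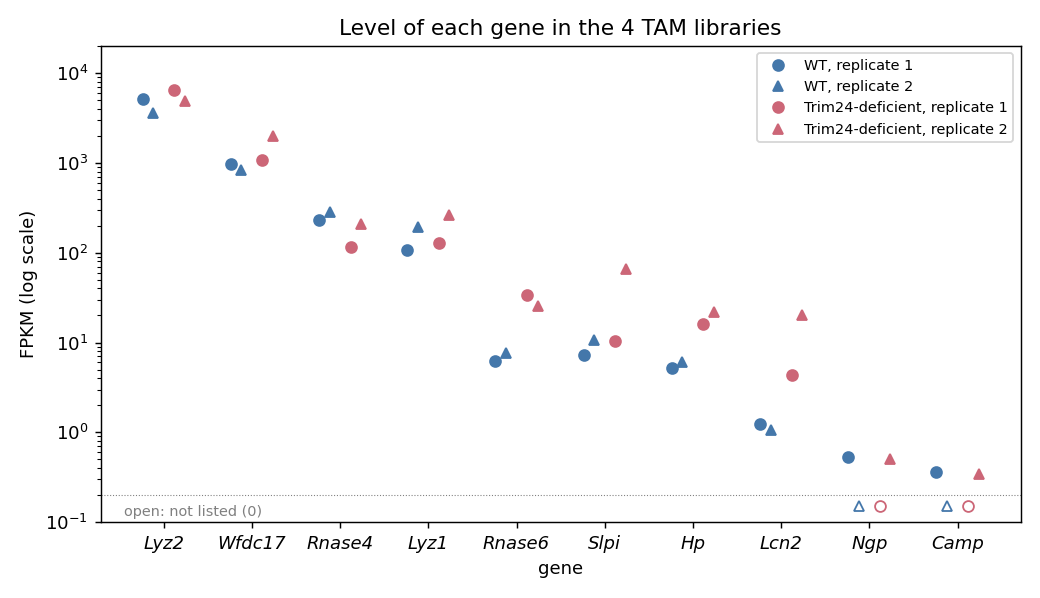
FPKM on a log axis (y) of the 10 genes (x), with WT in blue, deficient-labelled libraries in red, circles for replicate 1, triangles for replicate 2, and open symbols where a gene was not listed. Rnase6 and Hp show a pair of red symbols close together above the blue ones, whereas for Slpi and Lcn2 the red triangle stands far above the red circle.

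Of the 10 genes, 8 passed the filter on low counts, and 2 of them, Rnase6 and Hp, were called at a fold above 1.5 and a false discovery rate below 0.05, both higher in the deficient-labelled libraries. Over all 11302 tested genes 0.372% were called, 0.292% were called higher and 0.0796% lower. Between groups 7 of the 8 did not overlap, 6 above and 1 below WT, against 44.5% of all tested genes that did not overlap (21.4% above and 23% below). The list was made with this comparison known, so nothing is read from these counts. Lcn2 passed the filter only through the libraries in which it was high. An exact permutation of 2 libraries against 2 (two-sided) cannot give a p below 0.333. The adjusted p-values given here depend on the variance edgeR pools over genes.

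**Figure D3:**
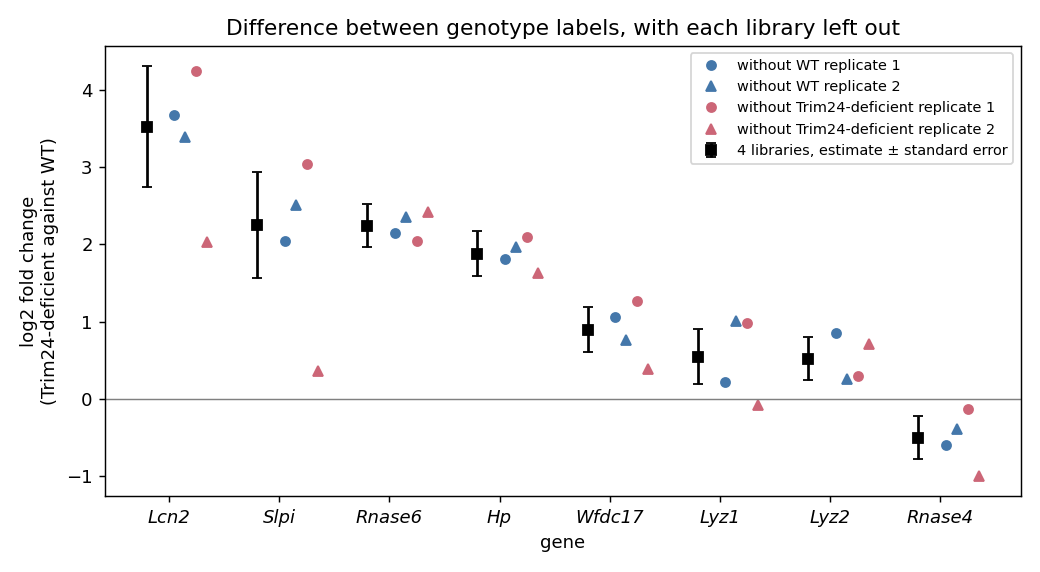
Log2 fold change between deficient-labelled libraries and WT (y axis) of the 8 genes tested (x axis), as squares with bars of 1 standard error (SE), beside the values with each library left out. Rnase6 and Hp stayed between 1.63 and 2.42 in all of them, whereas Slpi was at 0.35 and Lyz1 at -0.076 without deficient-labelled replicate 2.

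Hp (Entrez gene 15439, chr8:109575128-109579172, minus strand, 5 exons) encodes haptoglobin, the plasma scavenger of haemoglobin, which the liver secretes and which monocytes and granulocytes also make. It had 34 and 37 expected counts in the WT libraries, and 106 and 152 in deficient-labelled replicates 1 and 2. In CPM these were 6.87 and 7.71 against 22.6 and 31.2, with no overlap and 1.38-fold between the deficient-labelled libraries. Hp rose by a log2 fold change of 1.88 (SE 0.29, adjusted p = 0.0368), a fold of 3.69. The direction held in all alternatives, but the call was lost without either WT library (adjusted p = 0.0827 without replicate 1 and 0.121 without replicate 2, in a range of 9.58e-05 to 0.121), and with library totals alone, upper-quartile scaling and limma on FPKM. Cd163, the receptor for haptoglobin bound to haemoglobin, was at 23.0 and 17.9 CPM in WT and at 7.88 and 35.8 CPM in the deficient-labelled libraries (log2 fold change 0.095, SE 0.53, adjusted p = 0.962). Hmox1, which breaks down the haem taken up in this way, was at 1259 and 888 CPM in WT and at 996 and 573 CPM in the others (log2 fold change -0.45, SE 0.30, adjusted p = 0.570).

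Lcn2 and Slpi were highest in the same library, deficient-labelled replicate 2. Lcn2 (Entrez gene 16819, chr2:32384633-32388252, minus strand, 6 exons) had 5 and 4 expected counts in WT replicates 1 and 2, and 18 and 87 in deficient-labelled replicates 1 and 2. In CPM it was at 1.01 (95% exact Poisson interval 0.328 to 2.36) and 0.833 (0.227 to 2.13) in WT, and at 3.83 (2.27 to 6.06) and 17.9 (14.3 to 22.1) in the others. Both were above both WT libraries, and they differed 4.66-fold from each other. The log2 fold change was 3.52 (SE 0.78, adjusted p = 0.123), which did not pass in edgeR, whereas DESeq2 called it (adjusted p = 0.00569). It was 2.03 without deficient-labelled replicate 2 and 4.24 without deficient-labelled replicate 1, the latter passing (adjusted p = 1.28e-05, in a range of 1.28e-05 to 0.342 over the fits that left out each library). Its receptor genes Slc22a17 and Lrp2 had no more than 2 expected counts in any library.
Slpi (Entrez gene 20568, chr2:164354070-164389095, minus strand, 4 exons), the secretory leukocyte protease inhibitor, had 31 and 42 expected counts in WT, and 45 and 300 in deficient-labelled replicates 1 and 2. In CPM these were 6.26 and 8.75 against 9.58 and 61.6. Replicate 2 thus carried the difference, since deficient-labelled replicate 1 lay close to WT replicate 2. The log2 fold change was 2.25 (SE 0.69, adjusted p = 0.225), and 0.35 without deficient-labelled replicate 2 but 3.04 without replicate 1, where it passed (adjusted p = 6.22e-09, in a range of 6.22e-09 to 0.791).
Wfdc17 (Entrez gene 100034251, chr11:83703991-83706268, plus strand, 3 exons), a WAP domain protein also known as Amwap and described in activated microglia and macrophages, was the second most abundant gene of the list per length. It was at 978 and 841 FPKM in WT and at 1081 and 1965 FPKM in deficient-labelled replicates 1 and 2, a rank between 29 and 65 among all listed genes. Both deficient-labelled libraries were above WT, replicate 2 by far the most. The log2 fold change was 0.89 (SE 0.29, adjusted p = 0.263), 0.39 without deficient-labelled replicate 2 and 1.27 without replicate 1, where it passed (adjusted p = 0.000756, in a range of 0.000756 to 0.999).

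Ngp (Entrez gene 18054, chr9:110419747-110423012, plus strand, 4 exons) and Camp (Entrez gene 12796, chr9:109847379-109849617, minus strand, 4 exons), which lie 570129 bases apart, were at or below the floor of detection in every library. Ngp had 3 expected counts in WT replicate 1 and 3 in deficient-labelled replicate 2, and was listed in neither other library. Camp had 1 count in the same 2 libraries and was also not listed in the others. A count of 0 allows up to 0.625 CPM in WT replicate 2 and 0.639 CPM in deficient-labelled replicate 1, so a difference between groups was not detectable at this depth and no fold is given. Fpr2, the receptor for the cathelicidin peptide, was at 12.1 and 10.4 CPM in WT and at 42.6 and 20.3 CPM in the deficient-labelled libraries (log2 fold change 1.48, SE 0.36, adjusted p = 0.153). Its relative Fpr1 rose from 14.3 and 13.3 CPM to 70.7 and 79.5 CPM (log2 fold change 2.44, SE 0.21, adjusted p = 0.00141).

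Upstream sequence was available in the RefSeq table for 9 of the 10 genes, Hp being the exception, and is shown for Rnase6, which was called, and for Lcn2 and Slpi, which shared their highest library. The 250 bases before a transcript start were searched on both strands for TTGCNNAA (a C/EBP-type site), for GGG and TCC separated by any 4 bases (an NF-κB-type site) and GAGGAA (a PU.1-type core), with matches in capitals. Among 32851 mouse promoters of the same length 9.56% held the first, 16.5% the second and 23.3% the third. The starts are those of RefSeq, whereas the gene spans given above are from GENCODE M21. The windows shown for Rnase6, Lcn2 and Slpi all lie inside these spans. The sequences are from GRCm38.p6, 5′ to 3′ on the strand of the gene, at chr14:51128814-51129063 for Rnase6 (plus strand, 1 of its 3 starts), chr2:32387740-32387989 for Lcn2 and chr2:164356508-164356757 for Slpi (minus strand).
Rnase6: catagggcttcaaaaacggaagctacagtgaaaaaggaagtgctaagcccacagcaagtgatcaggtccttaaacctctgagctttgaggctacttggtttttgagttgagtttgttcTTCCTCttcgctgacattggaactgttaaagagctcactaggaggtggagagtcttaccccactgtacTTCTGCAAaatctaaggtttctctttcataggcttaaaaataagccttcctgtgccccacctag
Lcn2: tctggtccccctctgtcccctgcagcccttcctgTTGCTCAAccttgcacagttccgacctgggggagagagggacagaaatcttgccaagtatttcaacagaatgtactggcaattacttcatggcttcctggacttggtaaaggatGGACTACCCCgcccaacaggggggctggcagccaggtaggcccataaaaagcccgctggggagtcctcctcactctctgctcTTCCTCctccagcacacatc
Slpi: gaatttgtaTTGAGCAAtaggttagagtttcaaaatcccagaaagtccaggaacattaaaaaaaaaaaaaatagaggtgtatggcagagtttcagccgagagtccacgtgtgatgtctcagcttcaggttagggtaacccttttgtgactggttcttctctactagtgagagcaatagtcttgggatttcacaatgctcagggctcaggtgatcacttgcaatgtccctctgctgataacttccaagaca
The C/EBP-type letters occurred once in each of the 3 windows, which were picked, so this cannot be set against the share of 9.56%. Lcn2 alone of these held all 3 kinds of match, with the NF-κB-type match beginning 102 bases before the start. The window shown for Rnase6 also held 1 PU.1-type match, and another of its starts, whose window (chr14:51123658-51123907) lies directly before the gene's first base, held none of the 3 kinds. Over the 9 genes and all their 12 starts, 6 genes held the first match at any start, 2 the second and 3 the third. These counts are per gene, so they cannot be set against the shares above, which are of single promoters. Lyz1 and Wfdc17 were also highest in deficient-labelled replicate 2, and their windows held 1 and 0 C/EBP-type matches. All of these are matches of letters and do not show binding.

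The gene lists below are read against all tested genes, of which 12.2% were at an unadjusted p under 0.05 in edgeR, and 1.61% (of 10219 with an adjusted p) were called by DESeq2. Some genes are shared between lists, so the lists are not separate results. Among other acute-phase genes, 12 of 34 were tested and none was called (edgeR, with 9 of the 12 at an unadjusted p under 0.05, 8 higher and 1 lower). DESeq2 called 4, all higher (C3, C4b, Cfb and Saa3), and limma 0. The list had a median log2 fold change of 0.94 against -0.0059 over all tested genes. The most abundant in CPM were the complement factor Cfb, at 457 and 324 CPM in WT and 1047 and 916 CPM in the deficient-labelled libraries (log2 fold change 1.33, adjusted p = 0.0625), the protease inhibitor Serpina3g (1.64, adjusted p = 0.167) and transferrin, Trf (0.94, adjusted p = 0.308). The lower gene was Crp, the C-reactive protein gene, with 16.0 and 19.2 expected counts in WT and 3.48 and 0 in the deficient-labelled libraries (log2 fold change -3.41, SE 0.90, adjusted p = 0.190). Crp passed the filter only through the WT libraries, in which it was high. Saa4, Mt1 and Mt2 were also below 0, at -0.022, -0.32 and -0.45. Saa3, an acute-phase serum amyloid made by macrophages and singled out after its values were seen, had the same order of libraries as Lcn2 among the deficient-labelled libraries. Its values were 4.24 and 2.29 CPM in WT and 18.1 and 161 CPM in deficient-labelled replicates 1 and 2 (log2 fold change 4.77, SE 0.92, adjusted p = 0.0774).
Of 23 other antimicrobial genes of phagocytes 13 were tested and none was called (edgeR, 9 at an unadjusted p under 0.05 against 12.2% of all tested genes, with 3 called by DESeq2, Gbp2, Irgm1 and S100a9, and 0 by limma), with a median log2 fold change of 1.22. Of those tested, Prtn3, Pglyrp1, S100a8 and S100a9 are also in the list of neutrophil markers below. Prtn3 and Pglyrp1 passed the filter only through the group in which they were high. Cst3, Cybb and Slc11a1, the most abundant in CPM, had log2 fold changes of 0.18, 0.48 and 0.71. Of 19 other ribonuclease genes, the ribonuclease inhibitor Rnh1 included, 5 were tested and none was called (edgeR, 3 at an unadjusted p under 0.05 against 12.2% of all tested genes, and 0 called by DESeq2 or limma), with a median of 0.53. Rnaset2a and Rnaset2b, near-identical copies whose reads may have been divided between them, were at 0.53 and 0.59, and Rnh1 at 0.45. Of 20 other WAP family genes only Wfdc18 was tested, and it passed the filter only through the group in which it was high, with 3 and 1 expected counts in WT and 11 and 13 in the deficient-labelled libraries (log2 fold change 2.54, SE 0.79, adjusted p = 0.232), and its 2.67 CPM in deficient-labelled replicate 2 was the highest value of any of them.
Of 16 receptors, target proteases and partners of these proteins 11 were tested, with Fpr1 the only one called by edgeR (DESeq2 also called Fpr2) and a median log2 fold change of 0.36. The most abundant in CPM were the progranulin gene Grn, Hmox1 and Anxa2, at log2 fold changes of -0.017, -0.45 and 0.41. Of 30 regulators of acute-phase and granule genes 24 were tested, with Il1b the only one called by edgeR (DESeq2 also called Csf3r, and limma called none) and a median of 0.22. Il1b, a cytokine that drives the acute-phase response, rose from 28.7 and 33.8 CPM in WT to 106 and 189 CPM (log2 fold change 2.24, SE 0.28, adjusted p = 0.0123). Il6, the main inducer of hepatic acute-phase genes, had at most 3 expected counts in any library. Spi1, Irf8 and Stat3, the most abundant regulators in CPM, had log2 fold changes of 0.054, 0.54 and 0.42.

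The labelled cell type was matched by its markers, since all 14 macrophage genes were tested and summed to between 24305 and 30040 CPM, with none called (edgeR, 3 of the 14 at an unadjusted p under 0.05 against 12.2% of all tested genes, and 0 called by DESeq2 or limma) and a median log2 fold change of 0.12. C1qb, Apoe and C1qc were the most abundant in CPM. The 13 monocyte markers summed to 1311 and 1565 CPM in WT and to 2338 and 2570 CPM in the deficient-labelled libraries. Gpr141 was among the genes called in that list (log2 fold change 1.86). DESeq2 called 6, of which 5 were higher and 1, Cx3cr1, was lower (184.4 and 319.0 CPM in WT against 137.6 and 121.2 CPM, log2 fold change -0.96 in edgeR, adjusted p = 0.199), and limma called 0. F13a1, Ccr2 and Ly6c2 were the most abundant in CPM, at log2 fold changes of 0.59, 0.74 and 1.31. The median of the list over 12 tested genes was 0.77. Both deficient-labelled sums lay above both WT sums. Of the 12 genes, 8 had both deficient-labelled values above both WT values and 1 below, against 21.4% and 23% of all tested genes. In edgeR 9 of the 12 were at an unadjusted p under 0.05, 8 higher and 1 lower, against 12.2% of all tested genes. Rnase6, Lyz2, Slpi, Hp, Lcn2 and Wfdc17 also had both deficient-labelled values above both WT values. The part of monocytes in their values was not tested.
Of 27 neutrophil markers, 13 were tested and none was called (edgeR, 10 at an unadjusted p under 0.05 against 12.2% of all tested genes, with 4 called by DESeq2, Csf3r, G0s2, Hdc and S100a9, and 0 by limma), with a median log2 fold change of 1.53. Among the tested, Prtn3 and Pglyrp1 passed the filter only through the group in which they were high, which favours a low p and raises the median. Prtn3 had 1 and 2 expected counts in WT against 15 and 15, and Pglyrp1 4 and 2 against 25 and 16. The neutrophil markers summed to 207 and 262 CPM in WT and to 358 and 590 CPM in deficient-labelled replicates 1 and 2. The last was also the library in which Lyz1, Slpi, Hp, Lcn2 and Wfdc17 were highest. S100a8 was at 17.4 and 15.6 CPM in WT and at 35.1 and 118 CPM in the others (log2 fold change 2.21, adjusted p = 0.107). The most abundant in CPM of the list were Csf3r, at 87.0 and 96.9 CPM in WT and 169.8 and 157.2 CPM in the deficient-labelled libraries, and Cxcr2, at 63.6 and 84.0 CPM against 42.8 and 76.8 CPM (log2 fold change -0.30, adjusted p = 0.706). Further markers of the list varied. Ly6g had 0 and 0 expected counts in WT and 9.41 and 4.47 in the deficient-labelled libraries, and Elane, Mpo, Stfa3, Ceacam10 and Itgb2l were listed in no library. Mmp8 was at 7.67 and 16.0 CPM in WT and at 16.2 and 38.6 CPM in deficient-labelled replicates 1 and 2. Retnlg had 9 and 0 expected counts in WT and 9 and 55 in those replicates. Cd177 was at 4.85 and 5.63 CPM in WT and at 6.39 and 4.52 CPM in the others. The part of neutrophils in the Lyz1, Slpi, Hp, Lcn2 and Wfdc17 values was not tested.
Markers of B16 melanoma cells summed to between 781 and 1007 CPM, with a median log2 fold change of -0.46 over 9 genes. T, NK and B cell markers summed to 123 to 319 CPM, dendritic cell markers to 81.3 to 143 CPM, fibroblast and endothelial markers to 23.3 to 46.0 CPM, eosinophil markers to 17.2 to 30.7 CPM and keratinocyte markers to 0.606 to 1.07 CPM. None of these lists held a gene called by edgeR, DESeq2 or limma. At an unadjusted p under 0.05 in edgeR (12.2% of all tested genes) were 2 of 9 melanoma markers tested, both lower, 1 of 9 lymphoid, 1 of 3 eosinophil and 1 of 2 stromal markers, each higher, and 1 of 7 dendritic cell markers, which was lower. That dendritic cell marker, Flt3, passed the filter only through the WT libraries, in which it was high. No keratinocyte marker passed the filter. Except for melanoma markers, their sums were highest in deficient-labelled replicate 1. Of the tested members, Rnase6 and Lyz2 were also highest there. Lyz1, Slpi, Hp, Lcn2 and Wfdc17 were highest in deficient-labelled replicate 2, and Rnase4 in WT replicate 2. The part of these cells in the values of the members was not tested.

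**Figure D4:**
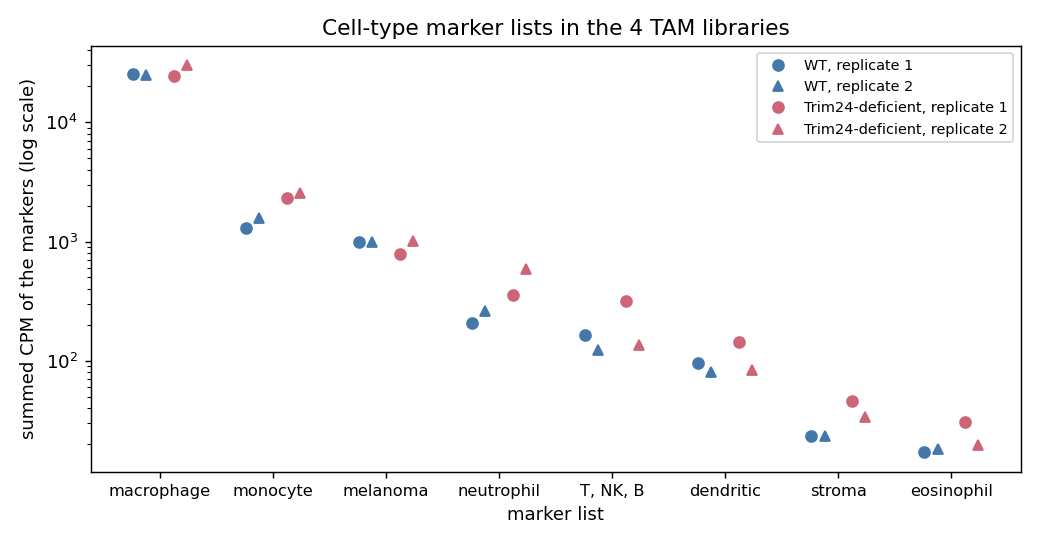
Summed CPM (log axis, y) of the markers of 8 cell types (x) in each library, with the same colors and symbols for groups and replicates as in the plot of levels. Macrophage markers stayed between 24305 and 30040 CPM in all libraries, while monocyte and neutrophil sums were higher in both deficient-labelled libraries.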

How the data were processed

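RNA-seq of sorted TAMs was analysed from 2 WT libraries and 2 libraries labelled Trim24-deficient, grouped by their titles. Bowtie was used by the authors to align reads to GRCm38/mm10, and RSEM to quantify genes (versions not given in the sources used here). They deposited for each library the expected count of each gene above 0, not normalized, and its FPKM, scaled by length and library total, with the transcript length. A gene missing from a table was taken as 0. Symbols from the RefSeq table of GRCm38.p6 matched 16698 of 16739 genes.
Expected counts were rounded, filtered with filterByExpr (11302 genes), scaled by TMM and tested with edgeR 4.0.16 (R 4.3.3; glmQLFit and glmQLFTest, no block) with Benjamini-Hochberg adjustment over all tested genes. Genes were called at a fold above 1.5 and an FDR below 0.05, the thresholds of the study. The standard error is the log2 fold change divided by the square root of F. CPM are counts scaled to a TMM-adjusted library size of 1000000. Replicates were distinct libraries (chi-square per degree of freedom of 8.57 in WT and 19.2 in the other group).
The members and gene lists were chosen with earlier results of these data known. The rule named the 10 members, the called genes of each other list and the 3 of highest mean CPM (named for the lists described at length), and Trim24, Xist and Ddx3y, except for an item that is not reported here. Genes named outside it (Saa3, Cd163, Fpr2, Crp, Saa4, Mt1, Mt2, Slc22a17, Lrp2, Il6, Ang, Ly6g, Mmp8, Retnlg, Cd177, Prtn3, Pglyrp1, Flt3, and those called by DESeq2 alone) were chosen after their values were seen. Alternatives were a replicate block, DESeq2 1.42.0, other scalings and filters, removal of each library's trend on transcript length, limma 3.58.1 on log2 FPKM with a pseudocount of 1 or 0.1, other thresholds, Lyz1 and Lyz2 summed, and each library left out. The scripts were tested on simulated counts with known changes.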

Additional observations from a re-analysis of the deposited data

How the results depend on the processing

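Apart from the fits that left out a library, all 73 refits of the 8 tested genes kept the direction. Across tested genes shorter transcripts tended to be higher in the libraries labelled Trim24-deficient (Spearman's rho -0.249 over genes, which are not independent), and with that trend removed Rnase6 and Hp were at 2.15 and 1.79 and stayed called. Of the 10 genes, 2 were called, 3 with DESeq2 (Rnase6, Hp and Lcn2), and 1, Rnase6, with library totals alone, with upper-quartile scaling and with limma on log2(FPKM + 1) or log2(FPKM + 0.1). Library totals moved the median log2 fold change of all genes to -0.15, and limma to -0.13 and -0.15, and Hp was then at 1.73, 1.56 and 1.70. Over all genes 42 were called, but 165 with DESeq2, 23 (14 higher and 9 lower) and 20 (11 and 9) with limma at the 2 pseudocounts, and 96 at an FDR below 0.1. Leaving out each library gave 25 to 652 genes, the lowest without WT replicate 2 and the highest without replicate 2 labelled Trim24-deficient, 1 to 6 of the list, and a log2 fold change of -0.076 (without replicate 2 labelled Trim24-deficient) to 1.01 for Lyz1. In these fits the lone library is assumed to vary like the other group. The replicate number as a block gave 634 genes (5.61%, 425 higher and 209 lower) and 5 of the list (Rnase6, Slpi, Hp, Lcn2 and Wfdc17). The labels do not say that the numbers pair samples, and deviations of same-numbered libraries from their group means correlated at 0.17 over genes, which with 2 per group is no test of pairing. The cause of these differences between settings was not tested. Depth limits Ngp, Camp and the WT values of Lcn2, at 5 or fewer counts, and Lcn2 had no value with at least 10 counts required in every sample. No value is given for Ngp and Camp under any setting.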
